A study of Mus musculus with 11 samples.

Results

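The nuclear-encoded subunits of the mitochondrial respiratory chain and ATP synthase were followed in the RNA of alveolar macrophages from newborn mice. Members were taken by gene symbol: all symbols starting with Nduf, Uqcr, Cox4i, Cox5, Cox6, Cox7, Cox8 or Atp5, together with Sdha, Sdhb, Sdhc, Sdhd, Cyc1 and Cycs. Names ending in a pseudogene tag were left out, and at least 10 counts in at least 2 libraries were required. Of 57180 identifiers in the table, 109 matched by name, 9 of these carried a pseudogene tag, 7 lay under the count minimum, and 93 were members. They comprise 37 genes of complex I, 8 complex I assembly factors (Ndufaf), 4 subunits of complex II, 9 of complex III, 17 of complex IV, 17 genes of complex V and cytochrome c (Cycs). Ndufb4c, counted with complex I, is typed as a processed pseudogene in GENCODE M21 and stayed in because its name carries no such tag. Ndufa4 and its relative Ndufa4l2 were placed with complex IV. The 17 genes of complex V carry older symbols (Atp5a1, Atp5b, Atp5g1 and so on), and Atp5s among them is not a structural subunit. Ndufb1-ps, left out for its name, was expressed at 28.1 to 66.9 CPM (counts scaled to library size, here by TMM) and carried 848 to 1458 counts in each library.

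All 11 libraries came from wild-type C57BL/6 pups, and the RNA is labelled as that of sorted alveolar macrophages of the lung at postnatal day 7. The exposed pups had been kept in 95% oxygen (hyperoxia) from postnatal day 1 to 5, the others in normoxia. Libraries are named here by oxygen (N or H), sex (M or F) and replicate number: NM1 to NM3, NF1 to NF3, HM2, HM3, and HF1 to HF3. Nothing in the labels ties a replicate to its own animal. All p-values below therefore speak of library-to-library spread only, and that spread may be technical.

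Total counts ran from 18087948 (NM3) to 32579468 (NF1) per library, and the members took 0.555% to 0.790% of them. At these depths 3 counts correspond to 0.0880 to 0.160 CPM, which covers counting error only. Alveolar macrophage genes were abundant, with 9796 to 16070 CPM summed over 23 markers, of which 2 had a log2 fold change above 0 with hyperoxia (median -0.36). Summed monocyte markers ran from 582 to 1309 CPM in NM, 1098 to 2336 in NF, 1436 to 2280 in HM and 1138 to 2253 in HF, with 8 of 8 markers above 0 (median log2 fold change 0.71). Erythroid markers summed to 1218 CPM in NM1, 759 in NF3 and 545 in NM3 and to 54.0 to 307.7 CPM in the other 8 libraries, with 0 of 7 above 0 (median -1.28). Epithelial markers summed to 180.2 to 350.2 CPM in normoxia and 370.8 to 452.4 CPM in hyperoxia, with 8 of 11 above 0 (median 0.29). Interstitial macrophage markers ran from 15.7 to 46.4 CPM but reached 96.4 CPM in HF2, with 7 of 7 tested above 0 (median 1.08), and endothelial markers ran from 100.3 to 192.2 CPM with 0 of 8 above 0 (median -0.71). Neutrophil markers summed to 40.4 to 73.6 CPM, with 5 of 8 tested above 0 (median 0.071) and Ly6g at 0 in every library. Mesenchyme markers ran from 19.3 to 67.5 CPM (2 of 7 above 0, median -0.34). Lower still were the markers of dendritic cells (4.33 to 16.7 CPM, 6 of 7 above 0, median 0.44), B cells (3.33 to 8.21 CPM, 3 of 5, median 0.27) and T and NK cells (1.67 to 7.79 CPM, 5 of 5 tested, median 0.57). The part of these cells in the members' values was not tested. Fewer cells of a type and less RNA per cell cannot be told apart in bulk samples.

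Complex I oxidises NADH and complex II oxidises succinate, and both pass electrons to coenzyme Q. Complex III hands them to cytochrome c, and complex IV passes them on to oxygen. Complexes I, III and IV pump protons, and complex V, the ATP synthase, uses the resulting gradient to make ATP. Only a minority of the subunits are encoded by mitochondrial DNA. The rest are nuclear genes, many with short messenger RNAs. Resident alveolar macrophages are known to rely on fatty acid oxidation, which feeds the same chain.

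The promoters of these genes are a textbook case of shared regulation, with recognition sites for NRF1, for the ETS factor GABPA and for YY1, and for this reason 4 of them are shown. RefSeq promoter windows (GRCm38.p6, 250 bases before to 50 after each start) were matched for 75 of the 93 members, giving 80 windows. The NRF1 core GCGCATGCG was found on either strand in 11 of these 80 windows (13.8%), against 1.75% of all 32851 windows in the RefSeq table. The ETS core CCGGAAG was found in 18 (22.5%, against 8.86%) and the YY1 core AAGATGGCG in 8 (10%, against 1.40%). At least 1 of the 3 motifs was present in 31 of the 80 windows (38.8%, against 11.4%). A match describes the letters only. Windows, not motifs, were counted, so a motif overlapping another counts once for each of the 3 kinds. The 4 windows were picked to show each motif in a different complex, and Atp5j has another window without any of them. Motifs are in capitals, on either strand, and each window is written 5′ to 3′ along the gene's strand.

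Cycs (chr6:50566520-50566819, minus strand, NRF1 core): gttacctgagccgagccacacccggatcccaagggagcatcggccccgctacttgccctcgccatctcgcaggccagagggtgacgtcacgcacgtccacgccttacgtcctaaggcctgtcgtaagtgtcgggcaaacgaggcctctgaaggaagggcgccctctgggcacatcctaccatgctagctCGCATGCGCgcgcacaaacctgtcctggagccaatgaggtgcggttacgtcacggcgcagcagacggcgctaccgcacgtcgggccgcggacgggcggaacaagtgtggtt
Uqcrh (chr4:116075021-116075320, minus strand, ETS core): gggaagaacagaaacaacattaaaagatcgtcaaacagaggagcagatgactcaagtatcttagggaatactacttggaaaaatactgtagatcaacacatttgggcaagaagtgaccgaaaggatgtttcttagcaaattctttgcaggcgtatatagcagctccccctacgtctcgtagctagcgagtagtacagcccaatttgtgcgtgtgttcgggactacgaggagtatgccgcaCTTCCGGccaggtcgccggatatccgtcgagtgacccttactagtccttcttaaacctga
Cox6a1 (chr5:115348909-115349208, minus strand, NRF1 and ETS cores): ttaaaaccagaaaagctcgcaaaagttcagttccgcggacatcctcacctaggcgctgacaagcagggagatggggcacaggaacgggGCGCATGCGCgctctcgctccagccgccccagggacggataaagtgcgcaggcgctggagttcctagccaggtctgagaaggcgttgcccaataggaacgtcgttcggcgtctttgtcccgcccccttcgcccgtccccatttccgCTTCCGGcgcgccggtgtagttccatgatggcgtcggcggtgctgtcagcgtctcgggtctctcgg
Atp5j (chr16:84834927-84835226, minus strand, YY1 and ETS cores): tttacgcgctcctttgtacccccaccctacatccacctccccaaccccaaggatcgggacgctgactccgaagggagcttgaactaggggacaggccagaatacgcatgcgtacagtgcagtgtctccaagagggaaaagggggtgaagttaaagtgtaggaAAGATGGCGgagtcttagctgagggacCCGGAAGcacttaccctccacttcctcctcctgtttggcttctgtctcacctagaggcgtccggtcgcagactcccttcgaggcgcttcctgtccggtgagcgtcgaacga

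Whether hyperoxia altered the transcripts of the chain was asked first, averaging the male and the female difference. None of the 93 members passed the test (edgeR's quasi-likelihood test, Benjamini-Hochberg adjusted p under 0.05 over 19948 genes), where 0.707% of all genes tested did. None reached an unadjusted p of 0.05, against 8.13% of all genes. DESeq2 and limma voom with sample weights also called 0 members, with 4 and 22 at an unadjusted p under 0.05 (9.45% and 20.4% of all genes). The median log2 fold change over the members was -0.16, with 80 of 93 below 0, beside -0.031 and 10798 of 19948 below 0 over all genes tested. Without Ndufb4c it was -0.16 with 79 of 92 below 0. No member had all 5 hyperoxia libraries above or all below the 6 normoxia libraries, which 1.76% and 0.396% of all genes did. The 95% interval of the log2 fold change lay within 1 in either direction for 84 of the 93 members, so for these a 1-unit change on the log2 scale lay outside the interval.

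That median rested on few libraries. It was -0.056 without HM3, -0.074 without NF3 and -0.26 without HM2, and -0.080 without the 4 libraries in which most genes were detected (NM3, NF3, HF2 and HF3). By complex the medians were -0.17 for complex I, -0.13 for its assembly factors, -0.018 for complex II, -0.14 for complex III, -0.23 for complex IV and -0.13 for complex V, and the log2 fold change of Cycs was -0.040. The 2 groups with values nearest to 0, complex II and cytochrome c, also had the longest transcripts, as given further on.

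**Figure D1:**
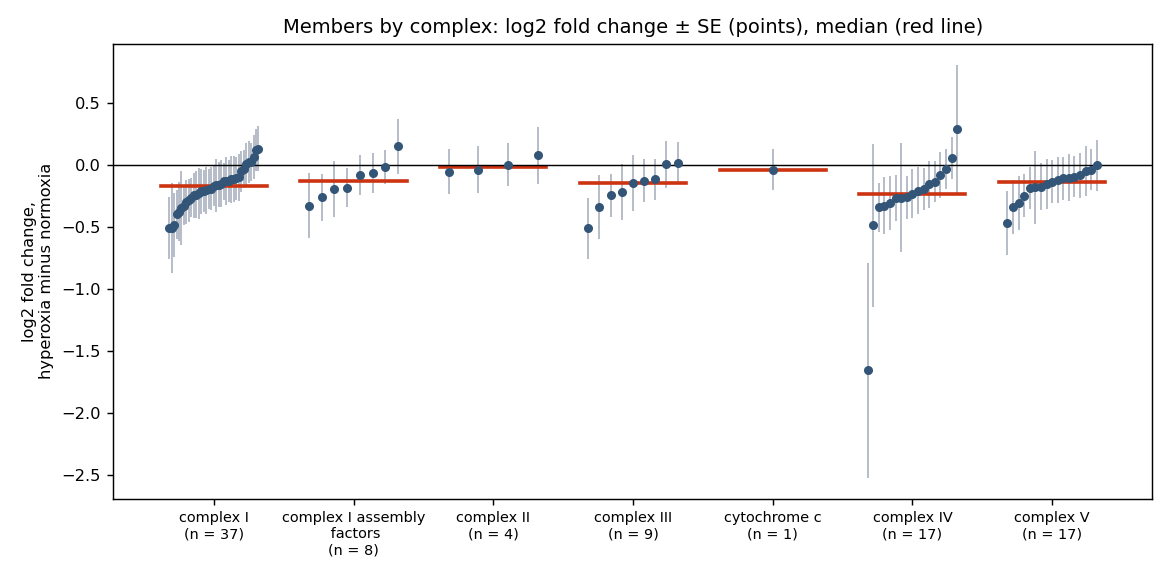
Log2 fold change, hyperoxia minus normoxia averaged over the sexes, of each of the 93 members (points, bars are the SE) by complex, with the median of each complex as a red line. The medians run from -0.23 in complex IV to -0.018 in complex II, and the lowest point is Ndufa4l2 of complex IV at -1.66 with an SE of 0.87. Ndufa4l2 met the count minimum only in normoxia libraries.

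In complex I the most negative values were those of Ndufa7 and Ndufb4c. Ndufa7, an accessory subunit of the NADH-oxidising arm, was at 40.9, 23.3 and 34.9 CPM in NM1 to NM3, 18.6, 17.2 and 42.2 in NF1 to NF3, 27.6 and 17.9 in HM2 and HM3, and 17.3, 13.7 and 24.6 in HF1 to HF3. Its log2 fold change was -0.51 (SE 0.25, adjusted p = 0.638 by edgeR), and NM2, NF1 and NF2 lay within the hyperoxia range. Ndufb4c, a processed pseudogene named after Ndufb4, stood at -0.51 (SE 0.36), with levels from 4.4 CPM (HF2) to 24.2 CPM (NF3). Reads of Ndufb4 and Ndufb4c may be split between them. At the other end, Ndufc1, a small membrane-arm subunit, was at 0.13 (SE 0.18) and Ndufs1 at 0.12 (SE 0.17).

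Ndufs1 is the largest iron-sulfur subunit and a core part of the electron path. It was measured at 78.1, 67.5 and 44.3 CPM in NM1 to NM3, 71.9, 70.2 and 62.0 in NF1 to NF3, 78.6 and 70.2 in HM2 and HM3, and 70.4, 72.4 and 63.3 in HF1 to HF3. Only NM3 stood clearly below the other 10 libraries. Over the 7 nuclear core subunits of complex I (the catalytic ones kept from bacteria to mammals) the median was -0.10, with 4 of 7 below 0. Over the 30 other genes, the accessory subunits and Ndufb4c, it was -0.20, with 27 of 30 below 0, and their median transcript was shorter (693.5 against 1623 bases). Without Ndufb4c these were -0.20 and 26 of 29, and the median of complex I was -0.17. Per kilobase of transcript, Ndufb10 was highest in complex I (116.8 CPM per kb) and Ndufab1, the mitochondrial acyl carrier protein, lowest (13.8 CPM per kb).

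Among the 8 assembly factors of complex I, which help build it and are not part of the finished enzyme, values ran from -0.33 for Ndufaf5 (SE 0.26) to 0.15 for Ndufaf7 (SE 0.22). The 8 factors summed to 54.9 to 92.0 CPM per library against 1362 to 2476 CPM for the 37 genes of complex I. Ndufaf5 itself was at 14.8, 7.13 and 11.4 CPM in NM1 to NM3 and 4.2, 6.51 and 10.7 CPM in NF1 to NF3. It stood at 8.12 and 5.69 CPM in HM2 and HM3 and at 7.00, 4.75 and 9.99 CPM in HF1 to HF3. The normoxia libraries spanned the whole hyperoxia range.

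The 4 subunits of complex II, which is also succinate dehydrogenase of the citric acid cycle, had the median nearest to 0 among the complexes. Log2 fold changes were 0.077 for the flavoprotein Sdha (SE 0.23), -0.053 for the iron-sulfur protein Sdhb (SE 0.18), and 0.0017 and -0.037 for the membrane anchors Sdhc (SE 0.17) and Sdhd (SE 0.19). Sdha was at 171.8, 219.0 and 98.5 CPM in NM1 to NM3, 245.6, 257.2 and 147.6 in NF1 to NF3, 181.3 and 205.3 in HM2 and HM3, and 254.6, 204.7 and 151.7 in HF1 to HF3. Its partner Sdhd was at 112.2, 70.8 and 82.3 CPM in NM1 to NM3 and 49.7, 57.8 and 88.6 CPM in NF1 to NF3. In the exposed groups Sdhd was at 94.4 and 73.1 CPM (HM2 and HM3) and 61.5, 59.4 and 75.7 CPM (HF1 to HF3). Within NF, the library NF3 was the lowest for Sdha and the highest for Sdhd. For both genes all hyperoxia libraries lay inside the range of the normoxia libraries.

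Complex III held the member with the smallest p, Uqcrh, the hinge protein that binds cytochrome c1. Uqcrh was at 121.6, 76.6 and 117.1 CPM in NM1 to NM3, 56.0, 59.8 and 126.2 in NF1 to NF3, 89.5 and 58.3 in HM2 and HM3, and 60.2, 39.3 and 69.7 in HF1 to HF3. The log2 fold change was -0.51 (SE 0.24, 95% interval -1.03 to 0.0027, adjusted p = 0.618 by edgeR). NM1, NM3 and NF3 lay above every hyperoxia library, and NM2, NF1 and NF2 lay among them. The core protein Uqcrc1 was at 0.0043 (SE 0.19) and Uqcrb, which lies near the coenzyme Q site, at 0.018 (SE 0.17). Uqcrq stood at -0.34 (SE 0.26). Per kilobase, Uqcrb was highest (220.5 CPM per kb) and Cyc1, cytochrome c1, lowest (26.6 CPM per kb).

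Cycs, the mobile carrier between complexes III and IV, was at 125.7, 92.5 and 79.3 CPM in NM1 to NM3, 77.6, 79.9 and 94.8 in NF1 to NF3, 90.7 and 97.2 in HM2 and HM3, and 78.4, 88.2 and 85.5 in HF1 to HF3. NM1 was the highest library and NF1 the lowest, and all hyperoxia libraries lay between them. Both HM libraries lay above the HF libraries.

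In complex IV, cytochrome c oxidase, Cox4i1, the constitutive form of the regulatory subunit IV, was at 371.2, 239.7 and 303.8 CPM in NM1 to NM3 and 181.0, 188.8 and 325.0 CPM in NF1 to NF3. It stood at 267.5 and 193.9 CPM in HM2 and HM3 and at 212.2, 153.4 and 234.7 CPM in HF1 to HF3, giving a log2 fold change of -0.31 (SE 0.22). NF1 and NF2 lay among the hyperoxia libraries and the other 4 normoxia libraries above most of them. Cox7a2 and Cox7b had the most negative values among the well-expressed subunits, at -0.34 (SE 0.20) and -0.33 (SE 0.23). Cox5a, a matrix-side subunit, was at 0.058 (SE 0.17) and Cox6b2 at -0.031 (SE 0.16). Cox6c was the most abundant member of the complex per kilobase (451.1 CPM per kb).

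Several subunits of complexes IV and V have paralogues used in muscle, testis or low oxygen. Per kilobase, Cox4i1 made up 99.0% to 99.9% of the Cox4i pair in every library, and Cox4i2, the form known from lung and from hypoxia, the remaining 0.121% to 1.01%. Cox6a1, the ubiquitous form, took 99.1% to 99.9% against the heart and muscle form Cox6a2, and Ndufa4 took 98.6% to 99.9% against Ndufa4l2. Cox7a1, a muscle form, took 0.831% to 2.45% of its family, Cox7a2 28.0% to 38.4% and Cox7a2l, the supercomplex factor, 59.4% to 70.2%. Cox6b2, known from testis, made up 6.76% to 14.1% of the Cox6b pair, with 6.73 to 10.7 CPM. Cox8b and Cox8c had at most 2 counts in any library, while Cox8a was at 67.7 to 122.0 CPM.

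Ndufa4l2, known as a gene induced through HIF1 in low oxygen, gave the most negative value of all members, -1.66 (SE 0.87, adjusted p = 0.705 by edgeR). Its level was near the detection limit: 0.374, 0.208 and 0.619 CPM in NM1 to NM3, 0.0318, 0.213 and 0.647 in NF1 to NF3, 0.158 and 0.337 in HM2 and HM3, and 0.0663, 0.0293 and 0.0343 in HF1 to HF3. The 3 HF libraries and NF1 held fewer than 3 counts' worth. Ndufa4l2 met the count minimum only through NM3 (12 counts) and NF3 (15 counts), both normoxia. Its lower value in hyperoxia is thus partly set by the rule for members and is not read as a change. By voom with sample weights the value was -0.80.

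All 17 genes of complex V had a negative log2 fold change. The extremes were Atp5e, the epsilon subunit of the rotor, at -0.47 (SE 0.26) and Atp5a1, the alpha subunit of the catalytic head, at -0.0034 (SE 0.21). Atp5e was at 58.9, 35.7 and 52.1 CPM in NM1 to NM3, 24.1, 25.8 and 61.1 in NF1 to NF3, 44.3 and 24.6 in HM2 and HM3, and 26.4, 19.9 and 36.0 in HF1 to HF3. The same libraries were high as for Uqcrh, namely NM1, NM3, NF3 and HM2.

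Atp5a1 was at 607.8, 582.4 and 315.7 CPM in NM1 to NM3, 557.9, 589.6 and 446.7 in NF1 to NF3, 564.3 and 516.7 in HM2 and HM3, and 567.0, 475.8 and 430.8 in HF1 to HF3. NM3, high for Atp5e, was the lowest library for Atp5a1. The proton-channel ring is encoded by 3 genes, and Atp5g3 contributed 58.2% to 64.7% of their sum per kilobase, Atp5g2 32.6% to 38.2% and Atp5g1 2.62% to 3.63%. The share of Atp5g1 depends on an annotated transcript of 4715 bases, which may be longer than the form counted. Atp5h was the most abundant gene of the complex per kilobase (351.4 CPM per kb) and Atp5s the least (1.09 CPM per kb). Of the parts not taken by the rule, Atpif1, the inhibitor of the ATP synthase, ran from 170.8 to 363.4 CPM with a log2 fold change of 0.11 (SE 0.22), and Usmg5 of the membrane part from 17.2 to 49.9 CPM with -0.27 (SE 0.29).

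**Figure D2:**
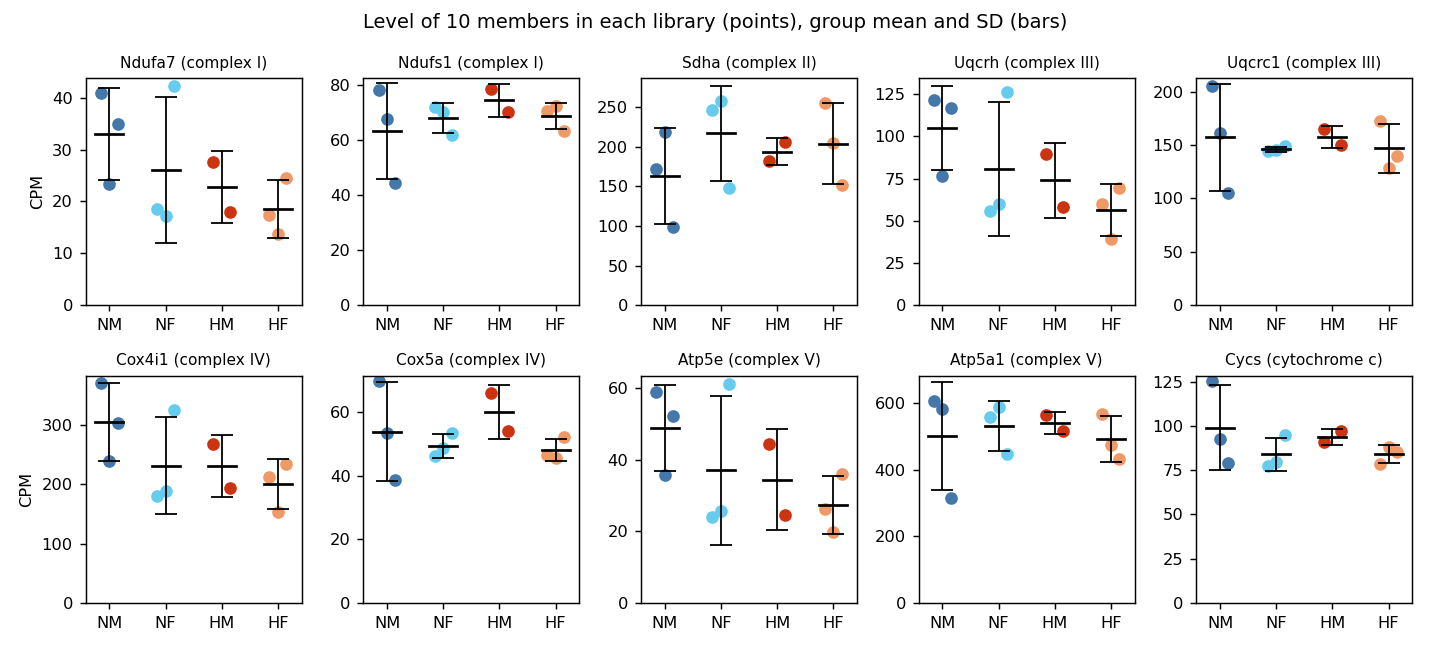
Level in CPM of 10 members in each library (points), with the group mean and SD (bars), for normoxia male (NM), normoxia female (NF), hyperoxia male (HM) and hyperoxia female (HF). The short transcripts Uqcrh and Atp5e spread from 39.3 to 126.2 CPM and from 19.9 to 61.1 CPM, and the long Sdha and Atp5a1 are lowest in NM3. So is Cox5a, at 645 bases, while Cycs, at 3123 bases, is lowest in NF1.

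The members were high or low together in single libraries. For each library the deviation of every member from its own mean was taken on the log2 CPM scale. The median deviation was 0.52, 0.043 and 0.14 in NM1 to NM3, -0.24, -0.20 and 0.25 in NF1 to NF3, 0.22 and -0.14 in HM2 and HM3, and -0.12, -0.40 and -0.019 in HF1 to HF3. All NM libraries were above 0 and all HF libraries below, while NF and HM each held libraries on both sides. In NM1, 89 of 93 members were above their mean, in HM2 87 and in NF3 77. In HF2 only 5 were, in NF1 11, and in NF2 and HM3 17 each.

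Summed over members, levels ran from 5106 CPM (HF2) to 9101 CPM (NM1), with 7464 ± 1428 CPM in NM (SD, n = 3), 6401 ± 931 in NF (n = 3), 6670 ± 1055 in HM (n = 2) and 5842 ± 637 in HF (n = 3). The ranges overlapped for every pair of groups except NM and HF, which differ in both sex and oxygen.

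Transcripts of all kinds shorter than 600 bases were also highest in NM1 and lowest in HF2. The 909 such genes had median deviations of 0.53, 0.17 and 0.42 in NM1 to NM3, -0.25, -0.25 and 0.25 in NF1 to NF3, 0.19 and -0.085 in HM2 and HM3, and -0.20, -0.41 and -0.020 in HF1 to HF3. The largest gap to the members was in NM3, where short genes stood at 0.42, above every library but NM1, and the members at 0.14, below NM1, NF3 and HM2. Genes of 2000 bases and over varied less, between -0.16 (NM1) and 0.16 (HF2). Fragments under 250 bases were removed from some libraries per the labels, which do not make clear from which. The part of that step in the pattern was not tested.

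The 13 subunits encoded by mitochondrial DNA had other extremes. Their median deviation was lowest in HM2 (-0.56), where the nuclear members were at 0.22, and highest in HM3 (0.42), where the nuclear members were at -0.14. In HF2 they stood at 0.30 and in NM1 at -0.26, again opposite in sign to the nuclear subunits of the same complexes. The signs also differed in NM2, NF2 and HF1. They were the same in NM3 (0.023, nuclear 0.14), NF1 (-0.21, nuclear -0.24), NF3 (0.050, nuclear 0.25) and HF3 (-0.058, nuclear -0.019). Genes for cytosolic ribosomal proteins (99 genes) were highest in NM1 (0.67) and lowest in HF2 (-0.69), and mitochondrial ribosomal proteins (78 genes) likewise (0.44 and -0.31). Erythroid markers were also highest in NM1, NF3 and NM3, but lowest in HM2 (54.0 CPM), and monocyte markers were lowest in NM3, NM1 and NF3. Their part in the result was not tested.

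**Figure D3:**
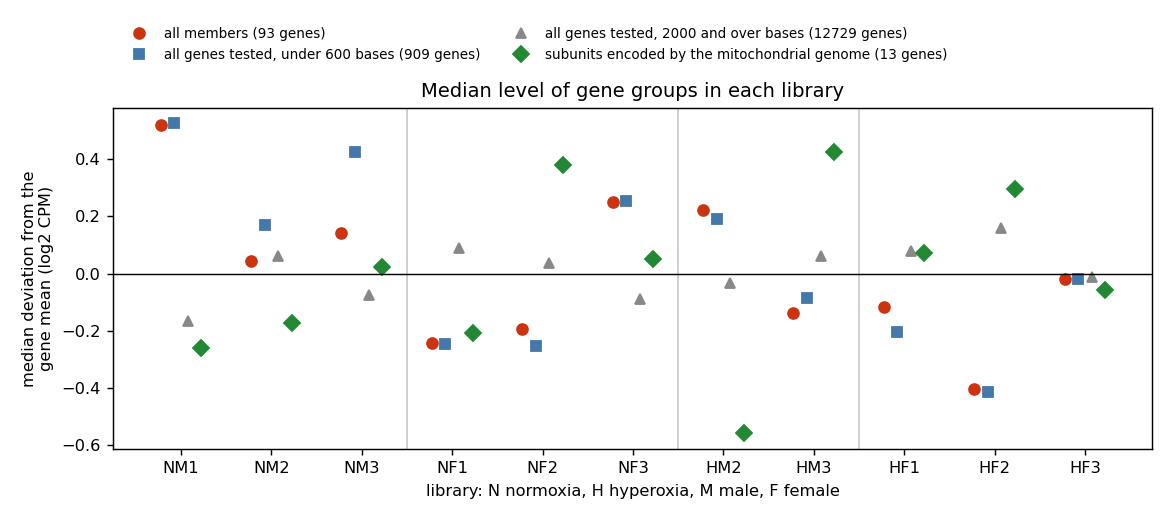
Median deviation from each gene's mean (log2 CPM) in each of the 11 libraries for the 93 members, for all 909 genes under 600 bases, for all 12729 genes of 2000 bases and over and for the 13 subunits encoded by mitochondrial DNA. Members and short genes share their highest value in NM1 (0.52 and 0.53) and lowest in HF2 (-0.40 and -0.41), and the mitochondrially encoded subunits do not.

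Because the members' transcripts are short, the fold changes were laid out by transcript length. The length of the principal coding transcript had a median of 838 bases over members and 2705 over all genes tested. It was shortest in complex IV (median 645 bases) and complex I (763), and longest in complex II (2065.5) and for Cycs (3123). For hyperoxia minus normoxia the 25 members under 600 bases had a median log2 fold change of -0.25, beside -0.31 for all 909 genes of that length. The 31 members of 600 to under 1000 bases were at -0.19 beside -0.18, the 28 members of 1000 to under 2000 bases at -0.13 beside -0.074, and the 9 members of 2000 bases and over at -0.0034 beside 0.0060. Under 600 bases the members lay nearer to 0 than other genes of like length, and from 1000 to under 2000 bases farther from it. Across the 93 members, Spearman's rho between length and log2 fold change was 0.46 (0.12 across all genes), and the members share their libraries, so this is a description.

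The result depends on how length is defined. With the median over all annotated transcripts of a gene, which partial transcripts shorten (521 bases for Sdha against 2900 for its principal transcript), 43 members fell under 600 bases with a median of -0.22, beside -0.14 for all genes of that length. The 38 members of 600 to under 1000 bases were then at -0.13 beside -0.030. When each library's trend on the principal length was taken off before the fit, the median over members was -0.081, beside -0.042 over all genes, with 67 of 93 below 0 and 0 called. With the annotated median length it was -0.13. The range of the members' library medians narrowed from 0.92 to 0.43 on the log2 scale, with NM1 (0.25) still highest and HF2 (-0.18) still lowest. For the 9 members of 2000 bases and over the range widened, from 0.89 to 1.13, with NM3 at -0.68.

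**Figure D4:**
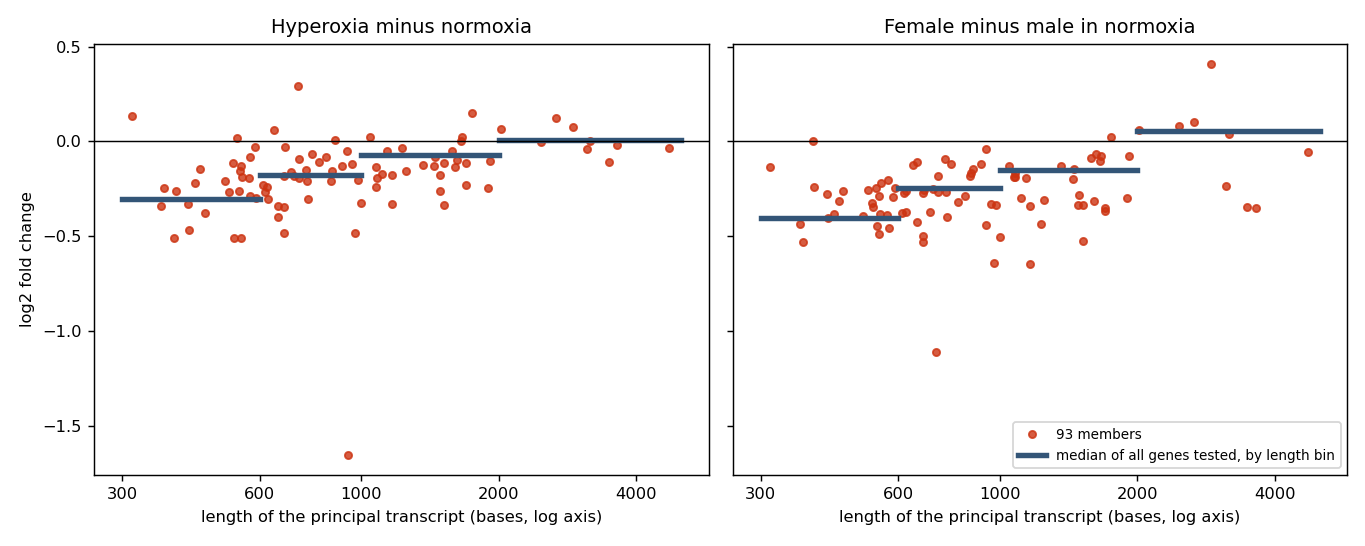
Log2 fold change of the 93 members (points) against the length of the principal transcript in bases (log axis), for hyperoxia minus normoxia and for female minus male in normoxia, with the median of all genes tested in 4 length bins (bars). In both comparisons the medians of all genes run upward with length, from -0.31 to 0.0060 and from -0.40 to 0.054, and most members lie around them.

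In males alone the median over members was -0.21 (79 of 93 below 0) beside -0.052 over all genes, and in females -0.12 (76 of 93 below 0) beside -0.0046. With each library's trend on the principal length taken off, the male median was -0.029 (56 of 93 below 0) beside -0.014 over all genes, and the female median -0.10 (76 below 0) beside -0.057. No member passed the test in either sex, where 0.0401% of all genes did in males and 0.0401% in females. At an unadjusted p under 0.05 there were 0 members in males (5.5% of all genes) and 1 in females (4.53% of all genes), Ndufa4l2 (-2.64, SE 1.22). Ndufa4l2 met the count minimum only in normoxia libraries, as given above, so this value is not read as a change. DESeq2 and voom also called 0 members. Unadjusted p under 0.05 was reached by 0 members in males and 2 in females with DESeq2 (6.56% and 5.45% of all genes), and by 22 and 4 with voom (13.4% and 22.0% of all genes). Same-numbered female libraries deviated together, although NF1 did so more with HF2 than with HF1, and the replicate number was also fitted as a block. Over all libraries this called 23 genes in females in place of 8, but 0 members, with 2 at an unadjusted p under 0.05 (5.54% of all genes) and a median of -0.13. Over the 6 female libraries alone, a fit added after seeing the data, the block called 789 of 17039 genes in place of 14. It called 0 of 92 members tested, with 13 at an unadjusted p under 0.05 (15.2% of all genes), 12 of them lower in hyperoxia, and a median of -0.11. Without HM3 the male median was 0.0012, without HM2 -0.34 and without NM1 -0.064. The female median was 0.059 without NF3, -0.041 without HF2, -0.20 without NF1, -0.20 without NF2 and -0.21 without HF3. The difference between the sexes in their response, tested as an interaction, was called for 0 members, and for 0.0% of all genes. No member had an unadjusted p under 0.05 by edgeR (1.67% of all genes) or DESeq2 (2.18%), and 6 had by voom (11.2%). The smallest p was that of Ndufaf2, with a difference of 0.45 (SE 0.32, 95% interval -0.23 to 1.12).

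Female and male libraries were compared within each oxygen group, as the series title names sex as its subject. In normoxia 87 of 93 members were lower in females, with a median log2 difference, female minus male, of -0.27 beside -0.058 over all genes. By edgeR none passed the test, where 0.0251% of all genes did, and 2 members had an unadjusted p under 0.05 (3.63% of all genes). These were Ndufaf2, an assembly factor (-0.53, SE 0.21), and Atp5k, the e subunit of the ATP synthase (-0.53, SE 0.23), followed by Ndufa2 (-0.46, SE 0.23). Atp5k was at 53.7, 39.3 and 39.7 CPM in NM1 to NM3 and 27.8, 23.7 and 40.4 CPM in NF1 to NF3. NF3 lay above both NM2 and NM3. The 2 members at an unadjusted p under 0.05 became 36 without NF3 (16.6% of all genes), 51 without the 4 libraries with most genes detected (13.2% of all genes, median -0.51), 8 without NM2 (14.1%), and 0 without NM1, NF1 or NF2 (3.12%, 1.66% and 1.61%).

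In hyperoxia the median was -0.22 with 88 of 93 below 0 (all genes 0.031), none was called (0.0251% of all genes), and 1 had an unadjusted p under 0.05 (1.73% of all genes), Ndufa1 (-0.51, SE 0.23). DESeq2 and voom called 0 there, with 1 and 12 members at an unadjusted p under 0.05 (2.03% and 6.42% of all genes). Averaged over the oxygen groups the median was -0.26, none was called (0.0251% of all genes), and 7 had an unadjusted p under 0.05 (3.27% of all genes), all lower in females. DESeq2 called 0, with 3 at an unadjusted p under 0.05 (4.18% of all genes). These 7 became 41 without NF3 (10.4% of all genes, median -0.34). Their number became 12 without NM2 or HF3, 3 without HF1, and 0 without NM1 (median -0.17), NF1 (-0.19), NF2 (-0.21) or HF2 (-0.20). For these last counts the share of all genes is not given here, so they are not read as a result about the members. The median was -0.37 without the 4 libraries and -0.15 without HM2. With the length trend of the principal transcript removed the averaged median was -0.075, with 72 of 93 below 0 and 1 at an unadjusted p under 0.05 (2.28%). As counted, in the 4 bins of principal length, shortest first, the averaged medians of members were -0.30, -0.27, -0.22 and -0.083. All genes of those bins were at -0.33, -0.18, -0.0945 and 0.077. Within hyperoxia members were at -0.28, -0.24, -0.18 and -0.16, beside -0.26, -0.14, -0.065 and 0.072 for all genes. Without NM1 the normoxia median was -0.12, without NF1 -0.18 and without NF3 -0.47. The hyperoxia median was -0.034 without HM2, -0.43 without HM3 and -0.12 without HF2.

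In the comparison by sex the number of members called depended on the method. DESeq2 called 0 members in normoxia, with 2 at an unadjusted p under 0.05 (6.06% of all genes). Voom with sample weights called 46 of the 93 members, all lower in females, with log2 differences of -1.26 to -0.50 and 12.9% of all genes called. At an unadjusted p under 0.05 it had 71 members (28.8% of all genes). Of the 46 called members, 18 belonged to complex I, 10 to complex V, 7 to complex IV, 6 to complex III, 2 to complex II, 2 to the assembly factors and 1 was Cycs. Averaged over the oxygen groups voom called 43 members, all lower in females, and 7.41% of all genes, with 72 members at an unadjusted p under 0.05 (24.9%).

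Among normoxia libraries voom weighted NF1 at 2.58, NM1 at 2.08 and NF2 at 2.0, but NM2 at 0.532, NF3 at 0.355 and NM3 at 0.277. The members were highest in NM1 and low in NF1 and NF2, the heavily weighted libraries. The part of the weights and of transcript length in the calls by voom was not tested. After each library's trend on the principal transcript length was taken off, voom with sample weights called 0 members in normoxia and 0.0902% of all genes. The median over members was then -0.19 in place of -0.57. For that voom fit the sample weights were estimated anew from the corrected values, by another routine, so more than the trend changed. By edgeR the median moved from -0.27 to 0.00024. Uqcrh, for example, was at -0.87 by voom (adjusted p = 0.0295) and at -0.33 after the trend was removed (adjusted p = 0.404). As counted, by edgeR, members in the 4 bins of principal length, shortest first, had normoxia medians of -0.31, -0.27, -0.24 and 0.040. All genes of those bins were at -0.40, -0.25, -0.15 and 0.054.

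**Figure D5:**
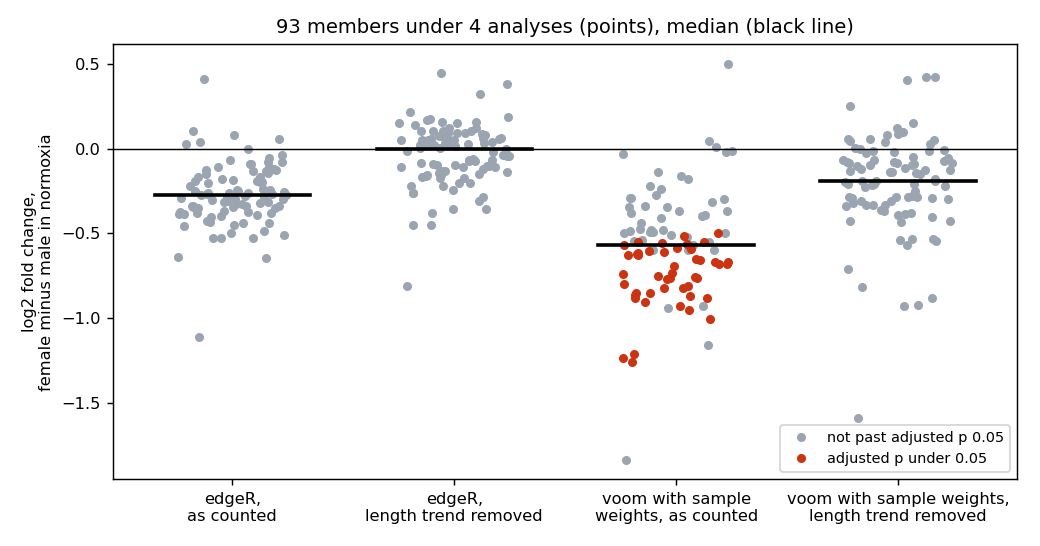
Log2 fold change, female minus male in normoxia, of the 93 members (points) by edgeR and by limma voom with sample weights, as counted and after each library's trend on principal transcript length was removed. Black lines are medians (-0.27, 0.00024, -0.57 and -0.19), and red points, 46 members by voom as counted, have an adjusted p under 0.05.

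The genes around the chain were read in lists, beside 0.707% of all genes called and 0.396% with all hyperoxia libraries below all normoxia libraries. For hyperoxia minus normoxia, 0 of 50 other assembly factors and chaperones passed the test (median -0.14, 34 below 0). The smallest p belonged to Lyrm4, a partner of the iron-sulfur cluster assembly enzyme, at 23.1 to 29.4 CPM in normoxia and 14.7 to 21.6 CPM in hyperoxia. These ranges did not overlap, and the log2 fold change was -0.55 (SE 0.14, adjusted p = 0.107 by edgeR). Cox14, which assists synthesis of the first complex IV subunit, stood at -0.54 (SE 0.17, adjusted p = 0.229 by edgeR). Of 19 regulators of respiratory genes none was called (median 0.046), with Tefm, an elongation factor of mitochondrial transcription, at -0.49 (SE 0.26) and Mterf2 at 0.72 (SE 0.41) first by p. Of the 13 mitochondrially encoded subunits none was called (median 0.071), with mt-Nd6 at 0.41 (SE 0.19) and mt-Co3 at -0.39 (SE 0.20) first by p.

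None of 18 pyruvate dehydrogenase and citric acid cycle genes was called (median 0.059), led by Pdha1 at 0.31 (SE 0.19) and Idh3a at 0.23 (SE 0.15). None of 13 coenzyme Q synthesis genes was called (median -0.11), with Coq8b at -0.32 (SE 0.15) and Coq7 at 0.32 (SE 0.15). None of 8 genes of other electron entry to coenzyme Q was called (median -0.0081), with Etfa at -0.21 (SE 0.16) and Etfdh at 0.21 (SE 0.16), which belong to 1 electron transfer path from fatty acid oxidation.

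Among 8 uncoupling proteins and carriers 1 passed, Ucp3, an inner-membrane carrier of the uncoupling protein family. It was at 4.80, 9.08 and 7.59 CPM in NM1 to NM3, 8.49, 6.97 and 4.74 in NF1 to NF3, 1.30 and 1.68 in HM2 and HM3, and 2.52, 1.06 and 2.27 in HF1 to HF3. Every hyperoxia library lay below every normoxia library, which held for 0.396% of all genes, and Ucp3 fell by 2.03 on the log2 scale (SE 0.28, adjusted p = 0.0019 by edgeR). Slc25a4, the adenine nucleotide carrier, was next by p at 0.16 (SE 0.16). Of 78 mitochondrial ribosomal proteins 1 passed (0.707% of all genes did), Mrps6, which fell by 0.80 (SE 0.17, adjusted p = 0.0377 by edgeR), followed by Mrps16 at -0.48 (SE 0.18). Of 99 cytosolic ribosomal proteins none was called (median -0.37, 91 below 0), with Rps27 at -0.71 (SE 0.22) and Rps27rt at -0.98 (SE 0.32) first by p.

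Some members have processed pseudogenes that could share reads. Of the 93, 22 had a pseudogene transcript in GENCODE M21 matching at 95% identity or more over at least 150 bases, 44 pseudogenes in all. Counts on these copies, summed over the libraries, exceeded 5% of the member's own counts for 3 members: Ndufab1 (10.6%), Atp5l (9.92%) and Ndufa12 (5.74%). Ndufb4c, itself among the members, was not among the pseudogenes searched, so its match to Ndufb4 was not measured. The counting of both is uncertain. Ndufb4c held 2943 counts over the libraries against 11903 for Ndufb4 (24.7%).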

How the data were processed

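Bulk RNA-seq of 11 libraries was analysed from a deposited table of raw read counts per Ensembl gene, which the authors did not normalise per its whole-number values. Per the submitters' processing notes the build was mm39 and the tools, whose roles are unstated, were DESeq2 1.42, R 4.3.2, Salmon 1.10.1, STAR 2.7.9 and Trim Galore 0.6.7. The release of the gene annotation is not given in the sources used here. Per the labels' protocols the cDNA kit was a low-input one, unique molecular identifiers were trimmed, and fragments under 250 bp were removed from some libraries before resequencing. Whether identifiers collapsed duplicates or counting used strand is not stated.

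Symbols were looked up for 51884 of 57180 identifiers. The filter on low expression in edgeR 4.0.16 (run in R 4.3.3) kept 19948 genes, all 93 members among them. Counts were scaled by TMM and fitted by the robust quasi-likelihood method with 4 group means. There were 7 contrasts, with Benjamini-Hochberg adjustment over all genes and a threshold of 0.05. SEs were derived from the F-test. CPM uses TMM-scaled library sizes, and log2 CPM a prior count of 2. DESeq2 1.42.0 and limma 3.58.1 (voom with sample weights) were alternatives, with other scalings, filters, left-out libraries, a replicate block and length-trend offsets (lowess, span 0.3). A female-only block and values without Ndufb4c were added after seeing the data. The fits were tested on simulated data.

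Transcript lengths came from GENCODE M21, of another build, so no gene coordinates are given; promoter coordinates are those of RefSeq GRCm38.p6. The length first planned was the median over annotated transcripts. The principal transcript (APPRIS, then RefSeq match, support level and length) was chosen, and its ranking once refined by adding the RefSeq match, after the first values were seen; it underlies the per-kilobase levels. Members, lists and tests were chosen with earlier results of these data known. Named members are, per complex, the 2 highest and 2 lowest log2 fold changes among those with a mean log2 CPM of at least 1 (all 4 of complex II), the highest and lowest per kilobase, the paralogue families, and the 3 smallest p of each comparison by sex. For each list the 2 smallest p are named. Of these 48 members a part is given library by library and the rest by range or fit; Ndufb1-ps, Atpif1 and Usmg5 were added outside this rule, and in the lists all called genes fell within it. Replicate libraries differed beyond sampling noise, with a chi-square per gene of at least 20.9. The labels do not say what a replicate number marks. By the deviations from group means, every same-numbered pair exceeded 0.1 only between NF and HF (r = 0.41, 0.63 and 0.85). Over all 15 same-numbered pairs r ran from -0.62 to 0.85. The numbers did not single out the pairs, since NF1 correlated more with HF2 (0.52) than with HF1, and NF2 with HF1 was at 0.35. The other differently numbered NF and HF pairs ran from -0.77 to -0.43. Over all groups the median r was -0.033 for same numbers and -0.059 for different numbers. These medians cannot decide on pairing, since deviations from a group mean cancel within the group. HM2 and HM3 thus mirror each other, for example with r = 0.604 and -0.604 to NM1.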

Additional observations from a re-analysis of the deposited data

How the results depend on the processing

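The number of members called was 0 in all 7 comparisons by edgeR under the other scaling, both filters, each left-out library and both length corrections, and also by DESeq2. It was 0 too in the additive model, run for 2 comparisons, in the fits of only 2 groups, run for 4, and without Ndufb4c. Voom with sample weights called 46 members for female minus male in normoxia and 43 averaged over the oxygen groups. With the length trend of the principal transcript also removed, an alternative chosen after seeing the data, it called 1 of 93 members in the averaged hyperoxia comparison. This was Ndufc1 (0.53, higher in hyperoxia, adjusted p = 0.0236 by voom), where 1470 of 19948 genes were called. That fit also called 1 member in females alone and 1 in the averaged comparison by sex, for which the share of all genes is not given here. The cause was not tested. Over all genes, the averaged hyperoxia comparison called 141 by edgeR, 446 by DESeq2, 955 by voom, 1470 by voom with the length trend removed, 302 without a filter, 256 with the replicate block, 241 with the block and length offsets, 84 with length offsets by annotated median, 23 without the 4 libraries with most genes detected, and 36 to 195 with 1 library left out. In the other comparisons the count ran over all alternatives from 0 to 91 in males, 0 to 2441 in females, 0 to 6 for the interaction, 5 to 2575 for sex in normoxia, 5 to 116 in hyperoxia and 5 to 1479 averaged. The replicate block left the members called at 0 and their median at -0.14, and the block with length-trend offsets gave -0.12. Same-numbered libraries deviated together in every pair only between NF and HF, where the blocked values stand beside the female result. With length offsets the block called 33 genes in females and 0 members. The block changed no other call of a member. Leaving out each library in turn kept every count at 0 and moved the averaged hyperoxia median between -0.26 and -0.056. Medians per complex in that comparison moved by less than the SD between libraries, with those of complex II and Cycs on either side of 0. Depth limits Ndufa4l2, Cox6a2, Cox4i2 and Cox7a1, all under 3 CPM. No group had more than 3 libraries, so single libraries were not tested as outliers.

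Of 48 named members, none called by edgeR, 20 changed the sign of the averaged hyperoxia log2 fold change in at least 1 alternative, most from a value near 0. With DESeq2 and with its size factors Sdhc was at -0.025, Uqcrb at -0.014 and Uqcrc1 at -0.024; without a filter Sdhc was at -0.0041 and Uqcrc1 at -0.0017; in the additive model Sdhc was at -0.012. With the replicate block Atp5a1 was at 0.072, Atp5g1 at 0.026 and Cox6b2 at 0.0057, and with the block and length offsets Atp5a1 at 0.070, Atp5g1 at 0.016, Cox6b2 at 0.075 and Ndufaf8 at 0.027. Length offsets by annotated median put Atp5a1 at 0.00080, Cox6b2 at 0.031 and Ndufaf8 at 0.031. Those by principal transcript put Atp5g2 at 0.016, Cox6a1 at 0.056, Cox6b2 at 0.092, Ndufaf8 at 0.050, Sdhb at 0.021, Sdhc at -0.045 and Sdhd at 0.034. Voom put Cox5a at -0.042, Sdha at -0.051, Sdhc at -0.14, Uqcrb at -0.071 and Uqcrc1 at -0.15. With the length trend removed as well it put Cox6a2 at 0.14, Cox7a1 at 0.013, Ndufaf8 at 0.026, Ndufs1 at -0.052, Sdha at -0.16, Sdhc at -0.22, Sdhd at 0.035 and Uqcrc1 at -0.17. Without the 4 libraries Cox5a was at -0.031, Sdhc at -0.046 and Sdhd at 0.033. With 1 library left out the ranges were -0.14 to 0.063 for Atp5a1, -0.14 to 0.048 for Atp5g1, -0.26 to 1.0 for Cox4i2, -0.047 to 0.16 for Cox5a, -0.20 to 0.050 for Cox6a1, -0.10 to 0.012 for Cox6b2, -0.82 to 0.063 for Cox7a1, -0.12 to 0.041 for Cycs, -0.20 to 0.014 for Ndufab1, -0.080 to 0.058 for Ndufaf4, -0.20 to 0.063 for Ndufaf8, -0.061 to 0.21 for Sdha, -0.14 to 0.058 for Sdhb, -0.12 to 0.085 for Sdhc, -0.12 to 0.10 for Sdhd, -0.058 to 0.096 for Uqcrb and -0.12 to 0.11 for Uqcrc1. The cause was not tested.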
